A study of Mus musculus with 32 samples.

Results

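The type I interferon response genes followed here are 37 genes named by symbol: transcription factors of the pathway, sensors of viral nucleic acid, and antiviral effectors that interferon induces. Each was read from 1 probe set per experiment, the one that varied most among that experiment's arrays. Of the 37, 35 were measured by a probe set assigned to that gene alone, among 18193 genes in all. Isg15 and Ifi44 had no such probe set and are not analysed here.

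Type I interferons are secreted proteins that bind the receptor chains Ifnar1 and Ifnar2, and the kinases Jak1 and Tyk2 then phosphorylate STAT proteins. The complex ISGF3, of which Stat2 and Irf9 are subunits, binds interferon-stimulated response elements in the promoters of the genes described here, while STAT dimers bind gamma-activated sites, as in the promoter of Irf1. Many of the induced genes encode parts of the pathway itself, such as Irf7, Stat2 and Irf9, so that the response feeds on itself until inhibitors such as Usp18 and Socs1 damp it.

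Transcript abundance was measured on 32 Affymetrix mouse arrays in 3 experiments on Ebf1, a transcription factor that early B-cell development requires. In the first, the mouse pre-B cell line 230238 was transduced with pMIG-Ebf1-engrailed (Ebf1-Eng, Ebf1 joined to the Engrailed repressor domain) or with the empty pMIG vector (EV), 3 samples each, and 500000 GFP-sorted cells were used per sample. In the second, fetal liver cells of Ebf1-/- E14.5 embryos, grown on OP9 stromal cells with KIT ligand, FLT3 ligand and interleukin-7, were transduced with pMIG-Ebf1-ER, whose product is switched on by 4-hydroxytamoxifen, and were sorted, put back on OP9 cells and harvested after 0, 6, 12 and 24 h in 0.1 uM of the drug, 2 samples per time. In the third, 1000000 live cells from each of 8 enlarged lymph nodes (LN) of Ebf1+/-Pax5+/- C57BL/6 mice aged about 30 weeks, frozen and thawed before the sort, were compared with the same number of pro-B cells sorted from wild-type C57BL/6 mice. Each node was run on 2 arrays, and the wild-type group had 2 samples, whose age is not given. Every sample of the second experiment lacked Ebf1 of its own, the 0 h samples included, and no time course without the drug or without Ebf1-ER was analysed here. The node cells were sorted for viability only, as far as the labels say, so cells other than tumour cells can be among them. The labels do not say whether replicates of the first and second experiments are separate cultures or animals. Their p-values therefore rest only on the spread seen between these samples, and this spread may be technical.

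The deposited values were taken as log2. Every probe set had a median of 0 over the arrays of the first experiment and over those of the second, so the values give differences between arrays and no expression levels, and the middle pair of values of a gene mirror each other around 0. Over the lymph node and wild-type arrays 24.0% of probe sets had a median of 0, and how these values were centred is not known. Whether a marker is absent from a cell type cannot be read from such values, and the number of arrays limits the precision. Ebf1 itself read -1.16, -1.45 and -0.49 on Ebf1-Eng arrays 1, 2 and 3 and 0.87, 0.49 and 0.83 on the EV arrays, so that it fell in Ebf1-Eng cells, with a difference of -1.77 ± 0.25 (adjusted p = 0.00486) by limma. At 24 h of Ebf1-ER activation it differed from 0 h by -0.77 ± 0.083. Whether the probe sets read the transgenes is not known, so these values do not check the transduction. In the lymph nodes 4 of its 5 probe sets read lower than in wild-type pro-B cells, with differences of -1.01 to -0.72, while the most variable one read higher, with a difference of 4.48 ± 0.18.

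The promoters of the members were searched for the letters that ISGF3 and STAT dimers bind, since the members were chosen as targets of these factors. Promoter windows of 300 bases, from 250 bases before to 50 after a gene's start, were taken from RefSeq (GRCm38.p6), which held 34 windows for 28 of the 37 members. The core of the interferon-stimulated response element, GAAA, any 2 bases and GAAA again on either strand, was found in 14 of the 34 windows (41.2%), belonging to 13 members, against 3.44% of all 32851 promoter windows. The gamma-activated site, TTCNNNGAA, which reads the same on both strands, was found in 8 of the 34 (23.5%) against 8.30%. Matches are a description and not evidence of binding, and some windows belong to the same gene. The 160 bases before the start of the gene are shown for the 4 members with the largest differences between Ebf1-Eng and EV cells among those with the first element before the start, with that element in capitals, and for Irf1 with the gamma-activated site in capitals.

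Ifit1: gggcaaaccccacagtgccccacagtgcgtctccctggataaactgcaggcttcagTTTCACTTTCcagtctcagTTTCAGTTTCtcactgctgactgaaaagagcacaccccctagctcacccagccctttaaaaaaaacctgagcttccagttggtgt
Ifit3: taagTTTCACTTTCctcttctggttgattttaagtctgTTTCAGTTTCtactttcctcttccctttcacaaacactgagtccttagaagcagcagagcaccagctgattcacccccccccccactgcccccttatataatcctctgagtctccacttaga
Rsad2: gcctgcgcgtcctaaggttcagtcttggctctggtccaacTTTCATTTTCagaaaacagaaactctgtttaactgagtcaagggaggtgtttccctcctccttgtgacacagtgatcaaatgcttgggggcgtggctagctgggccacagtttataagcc
Oas1a: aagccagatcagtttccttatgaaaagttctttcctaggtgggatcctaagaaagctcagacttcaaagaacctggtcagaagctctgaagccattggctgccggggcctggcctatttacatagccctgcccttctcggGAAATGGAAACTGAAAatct
Irf1: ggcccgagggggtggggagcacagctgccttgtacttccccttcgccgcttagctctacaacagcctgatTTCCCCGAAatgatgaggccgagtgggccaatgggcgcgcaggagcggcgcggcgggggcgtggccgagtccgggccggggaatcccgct

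The Ifit1 stretch lies at chr19:34640729-34640888, plus strand, and holds 2 matches on the opposite strand that begin 104 and 85 bases before the start. The Ifit3 stretch, at chr19:34583369-34583528, plus strand, holds 2 matches at 156 and 122 bases before the start with the same letters as those of Ifit1, TTTCACTTTC and TTTCAGTTTC. In Rsad2, at chr12:26456453-26456612, minus strand, the single match begins 120 bases before the start. In Oas1a, at chr5:120907526-120907685, minus strand, 2 matches overlap and begin 20 and 14 bases before the start. The Irf1 stretch, at chr11:53769854-53770013, plus strand, has the gamma-activated site TTCCCCGAA 90 bases before the start and no response element core in the window. Of the measured members, 12 had the response element core in a window and 14 had a window without it.

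In 230238 cells, interferon response genes were higher with Ebf1-Eng than with the empty vector, mainly on Ebf1-Eng arrays 1 and 2. The largest rises past the threshold were those of Ifit1, Rtp4, Usp18 and Ifit3, at 33.9-, 24.6-, 18.9- and 18.6-fold. By limma with Benjamini-Hochberg adjustment over all genes, 10 of the 35 members rose, 0 fell and 25 were not called, where 13.6% of all genes passed, 7.93% higher and 5.67% lower. Over the 35 members the median difference was 1.27 on the log2 scale, against -0.017 over all genes, and all 35 differences were above 0. For 16 of the 35 members all Ebf1-Eng arrays lay above all EV arrays without overlap, as 16.5% of all genes did, and for 0 they lay wholly below. Errors beside log2 differences here and below are limma's standard errors, with n = 3 and 3 in this comparison.

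**Figure D1:**
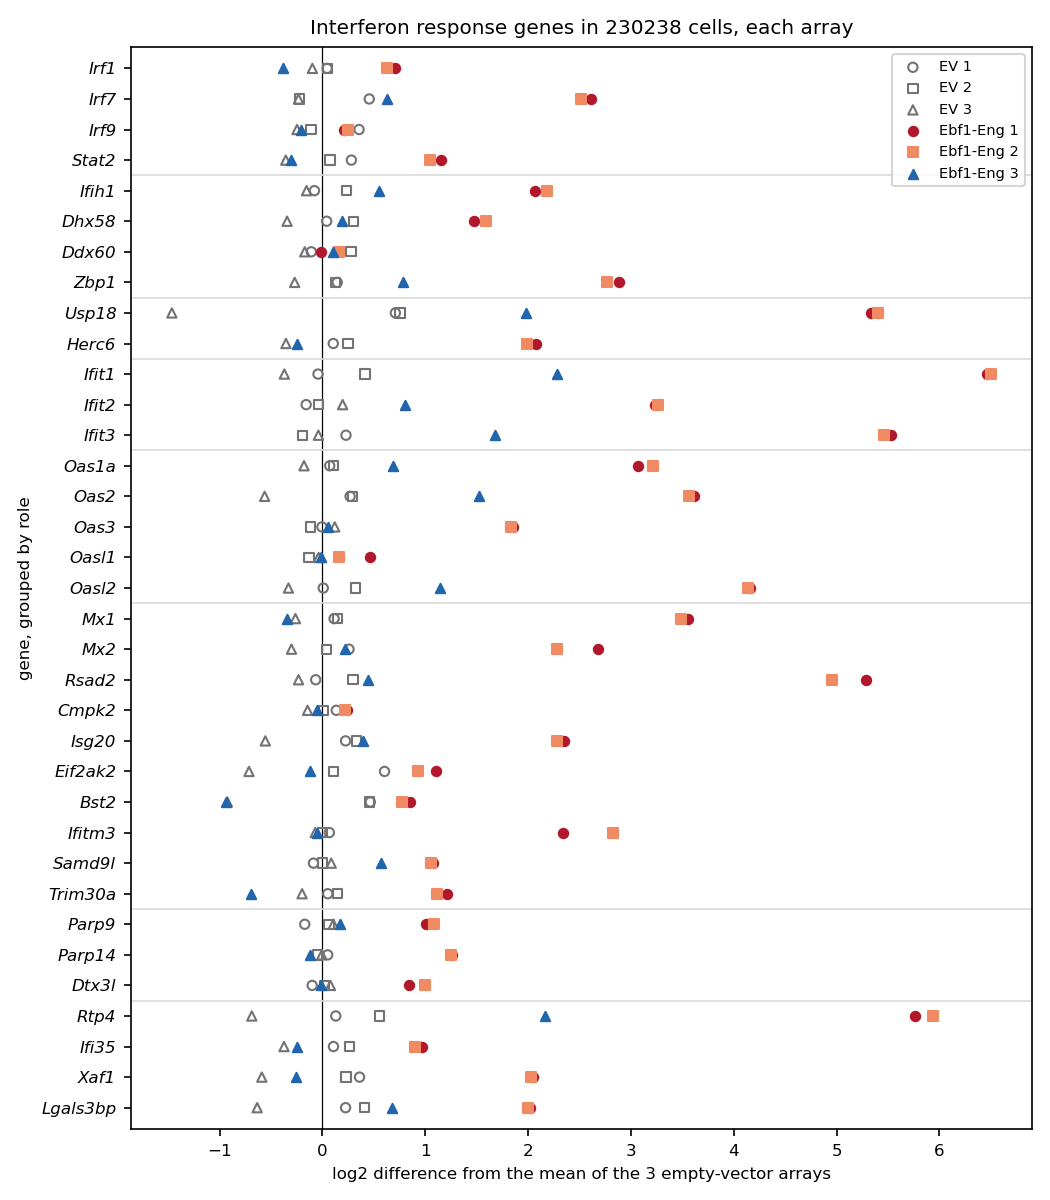
Each of the 35 measured interferon response genes in each of the 6 arrays of 230238 cells, as the log2 difference from the mean of the 3 empty-vector (EV) arrays (horizontal axis), with genes in rows grouped by role. Filled symbols are Ebf1-Eng arrays, open ones EV arrays, and shapes mark the replicate number. Ebf1-Eng arrays 1 and 2 lie close together and to the right for most genes, with Ifit1 at 6.46 and 6.50, while array 3 has Ifit1 at 2.28 and lies among or below the EV arrays for 19 of the 35.

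The replicates numbered 3 stood apart from the others in this experiment. Relative to the mean of the EV arrays, the median of the 35 members was 2.05 on Ebf1-Eng array 1, 2.00 on array 2 and 0.17 on array 3, and -0.25 on EV array 3. On Ebf1-Eng array 3, 20 of the 35 members lay above the EV mean, compared with 34 and 35 on arrays 1 and 2. That array lay above all 3 EV arrays for 16 members, among them for 14, and below all of them for 5, which were Irf1, Mx1, Bst2, Trim30a and Parp14.

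Taken within a replicate number, the median difference between Ebf1-Eng and EV was 1.86 for number 1, 1.80 for number 2 and 0.48 for number 3. Over the 25 members whose mean difference in numbers 1 and 2 was 1 or more, number 3 kept a median of 31.4% of that difference. The same measure was 67.0% over 863 other genes that were higher by 1 or more in numbers 1 and 2, and 57.3% over 633 genes that were lower by as much. Ebf1 and the early B-cell markers moved in the same arrays: relative to EV, the median of 12 early B-cell markers was -1.55 and -1.63 on Ebf1-Eng arrays 1 and 2 and -0.69 on array 3. The part of these shifts in the interferon response values was not tested. These within-pair values rest partly on a low EV array 3, which over the 25 lay at a median of -0.39 from the mean of EV arrays 1 and 2. Set against that mean instead, Ebf1-Eng array 3 had a median of 0.36 over the 25, compared with 0.68 within its pair. Usp18 differed by 3.44 within number 3 and by 1.24 against EV arrays 1 and 2, and Lgals3bp by 1.31 and 0.36. Rtp4 differed by 2.85 and 1.82 in the same way, and Oas2 by 2.09 and 1.24. Mx1, with 3.39 as its mean difference in numbers 1 and 2, differed by -0.086 in number 3.

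**Figure D2:**
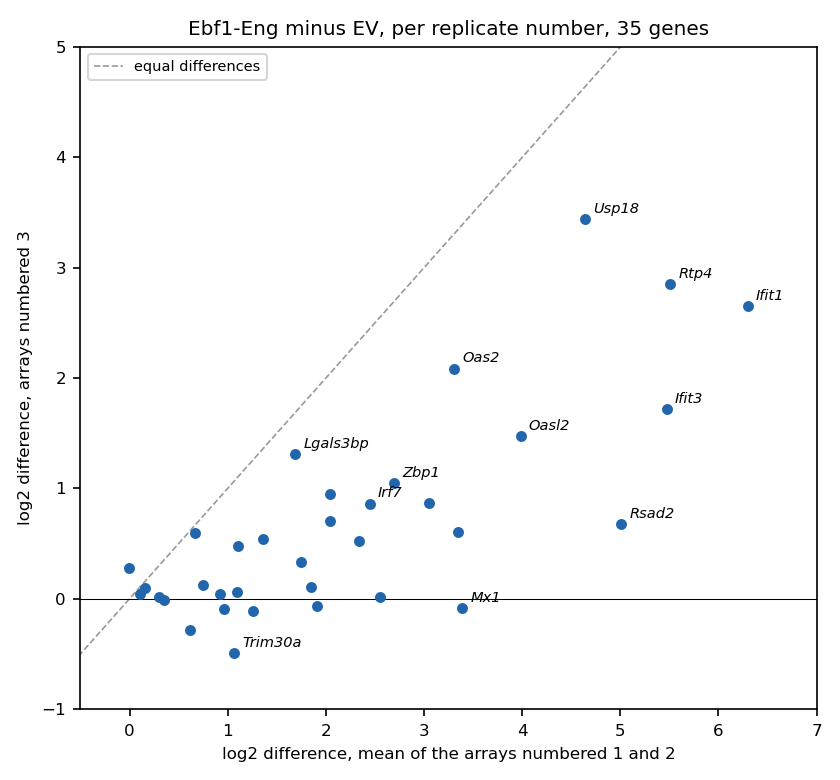
For each of the 35 measured interferon response genes, the log2 difference between Ebf1-Eng and EV in the pair of arrays numbered 3 (vertical axis) against its mean in the pairs numbered 1 and 2 (horizontal axis), with the dashed line marking equal differences. The genes at the right lie below the line, with Ifit1 at 6.30 and 2.66 and Rsad2 at 5.01 and 0.68, and Usp18 at 4.64 and 3.44, where EV array 3 read low for Usp18, at -2.20 from the mean of EV arrays 1 and 2.

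The 2 arrays numbered 3 deviated together (correlation of deviations 0.44). Ebf1-Eng array 1 deviated as much with EV array 2 (0.29) as with EV array 1 (0.29), so pairing by number is an assumption. With the replicate number as a block 19 members rose, where 10.3% of all genes were called higher. The 9 added by the replicate block were Irf7, Dhx58, Oas1a, Mx2, Rsad2, Isg20, Eif2ak2, Xaf1 and Lgals3bp. Without both arrays numbered 3, 31 members rose, where 13.7% of all genes were called higher, and the median difference over members was 1.85. The 4 not called then were Irf9, Ddx60, Oasl1 and Cmpk2. Leaving out 1 array moved the count of members called from 10 to 0 without Ebf1-Eng array 1, to 0 without Ebf1-Eng array 2 and to 29 without Ebf1-Eng array 3. Of all genes, 6.23%, 6.27% and 17.5% were called in these 3 fits. The count of members was 2 without EV array 1, 1 without EV array 2 and 2 without EV array 3, where 8.75%, 7.32% and 15.4% of all genes were called.

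Among the transcription factors, 0 of 4 were called, by limma with Benjamini-Hochberg adjustment, and 1 of the 4 had an unadjusted p under 0.05, as did 26.7% of all genes in this comparison. Irf7, which drives transcription of interferon-alpha genes, read 2.07, 1.97 and 0.087 on Ebf1-Eng arrays 1, 2 and 3 and -0.087, -0.77 and -0.77 on the empty-vector arrays. All Ebf1-Eng arrays lay above all EV arrays, with array 3 close to the highest of them, and the difference was 1.92 ± 0.52 (adjusted p = 0.0557), or 0.0124 with the replicate block. Stat2, the ISGF3 subunit that activates transcription, read 0.98, 0.87 and -0.49 on Ebf1-Eng arrays 1, 2 and 3 and 0.10, -0.10 and -0.53 on the empty-vector arrays. Ebf1-Eng arrays 1 and 2 were high and array 3 lay among the EV arrays, and the difference was 0.63 ± 0.39 (adjusted p = 0.365). For Irf9, the DNA-binding subunit of ISGF3, the values were 0.16, 0.20 and -0.26 on Ebf1-Eng arrays 1, 2 and 3 and 0.31, -0.16 and -0.30 on the empty-vector arrays. These overlap throughout, and the difference was 0.083 ± 0.20 (adjusted p = 0.839). Irf1, which STAT dimers induce, read 0.65, 0.58 and -0.43 on Ebf1-Eng arrays 1, 2 and 3 and -0.0022, 0.0022 and -0.15 on the empty-vector arrays. Its Ebf1-Eng array 3 was the lowest of the 6, and the difference was 0.32 ± 0.28 (adjusted p = 0.54).

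Of the 4 nucleic acid sensors, Ifih1 (MDA5, a sensor of long double-stranded RNA) and Zbp1 (a sensor of Z-form nucleic acid) rose. Zbp1 read 2.43, 2.31 and 0.32 on Ebf1-Eng arrays 1, 2 and 3 and -0.32, -0.34 and -0.73 on the empty-vector arrays. Arrays 1 and 2 were high, array 3 was between them and the EV arrays, and the difference was 2.15 ± 0.53 (adjusted p = 0.0403). The difference of Ifih1 was 1.60 ± 0.41 (adjusted p = 0.047). Dhx58 (LGP2, a partner of MDA5) differed by 1.09 ± 0.38 (adjusted p = 0.113) and the helicase Ddx60 by 0.086 ± 0.14 (adjusted p = 0.761), neither past the threshold.

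In the ISG15 conjugation group, Usp18, which removes ISG15 from proteins and blocks signalling at Ifnar2, read 3.97, 4.04 and 0.61 on Ebf1-Eng arrays 1, 2 and 3 and -0.66, -0.61 and -2.83 on the empty-vector arrays. EV array 3 was the lowest of the 6 by a wide margin, the groups did not overlap, and Usp18 rose by 4.24 ± 1.02 (adjusted p = 0.0361). Herc6, the main ligase that attaches ISG15 in mice, differed by 1.27 ± 0.60 (adjusted p = 0.232).

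All 3 Ifit genes, which encode proteins that bind foreign RNA ends, rose. Ifit1 read 5.11, 5.15 and 0.94 on Ebf1-Eng arrays 1, 2 and 3 and -1.39, -0.94 and -1.72 on the empty-vector arrays. All Ebf1-Eng arrays lay above the EV arrays, with array 3 far below arrays 1 and 2, and the rise was 5.08 ± 1.07 (adjusted p = 0.0222), the largest of the 35 members. Ifit2 and Ifit3 rose by 2.43 ± 0.63 and 4.22 ± 0.97, with adjusted p-values of 0.0458 and 0.0301.

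In the OAS family, whose active synthetases make the 2-5A that switches on RNase L, Oas2 and Oasl2 rose and 3 of 5 were not called. Oasl2 read 3.43, 3.41 and 0.41 on Ebf1-Eng arrays 1, 2 and 3 and -0.72, -0.41 and -1.06 on the empty-vector arrays. The groups did not overlap, and Oasl2 rose by 3.15 ± 0.77 (adjusted p = 0.0391). The rise of Oas2 was 2.90 ± 0.57 (adjusted p = 0.0167), while Oas1a, with its overlapping pair of response element cores, differed by 2.32 ± 0.63 (adjusted p = 0.0541). Oas3 differed by 1.25 ± 0.46 (adjusted p = 0.137) and Oasl1 by 0.20 ± 0.15 (adjusted p = 0.459).

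Samd9l, a restrictor of cell growth and of viruses, was the only one of the 10 other antiviral effectors past the threshold, with a rise of 0.90 ± 0.16 (adjusted p = 0.0108). Rsad2 (viperin, which makes a chain-terminating nucleotide) had the largest difference of the 10 and read 4.92, 4.59 and 0.074 on Ebf1-Eng arrays 1, 2 and 3 and -0.44, -0.074 and -0.60 on the empty-vector arrays. Its array 3 stood only just above the EV arrays, and the difference of 3.56 ± 1.19 had an adjusted p of 0.102, or 0.0346 with the replicate block. The GTPases Mx1 and Mx2 differed by 2.23 ± 0.98 and 1.73 ± 0.60, and the endosomal restriction factor Ifitm3 by 1.71 ± 0.68. The remaining 5, Isg20, Eif2ak2 (PKR), Trim30a, Bst2 (tetherin) and Cmpk2, had differences from 0.13 (Cmpk2) to 1.67 (Isg20).

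In the PARP9-DTX3L and PARP14 group, ADP-ribosyltransferases and a ubiquitin ligase partner, 0 of 3 were called, and 2 of 3 had an unadjusted p under 0.05 by limma, with 26.7% of all genes under it. Parp14 read 1.24, 1.23 and -0.14 on Ebf1-Eng arrays 1, 2 and 3 and 0.029, -0.068 and -0.029 on the empty-vector arrays. Arrays 1 and 2 were high and array 3 was below all EV arrays, and the difference was 0.80 ± 0.36 (adjusted p = 0.21). Among the other induced genes, Rtp4, a chaperone of membrane receptors with antiviral activity, read 4.40, 4.58 and 0.80 on Ebf1-Eng arrays 1, 2 and 3 and -1.23, -0.80 and -2.05 on the empty-vector arrays. The groups did not overlap, and Rtp4 rose by 4.62 ± 0.97 (adjusted p = 0.0219). Lgals3bp, a secreted glycoprotein, differed by 1.56 ± 0.42 (adjusted p = 0.0536), Xaf1, an apoptosis-linked protein, by 1.27 ± 0.62 (adjusted p = 0.254), and Ifi35 by 0.54 ± 0.34 (adjusted p = 0.378).

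Further genes of the pathway were taken from lists. Of 18 interferon genes listed, 10 had a probe set of their own, in all 3 experiments, and the others were not seen. None of these 10 was called, and 0 of the 10 had an unadjusted p under 0.05 by limma, with differences from -0.20 to 0.18. Of 14 receptor and JAK-STAT genes, the kinase Jak2 rose by 0.69 ± 0.099 and the inhibitor Socs3 fell, with a difference of -1.19 ± 0.25. Of 24 sensing genes, 4 rose and 2 fell, the largest called differences being those of the endosomal RNA sensor Tlr7 (3.23 ± 0.28), the DNA sensor Ifi204 (3.02 ± 0.74) and Ddx58, which encodes RIG-I (1.88 ± 0.40). Of 32 other interferon-induced genes, 5 rose and 1 fell, led by Rnf213 (2.90 ± 0.49), Slfn8 (1.94 ± 0.41) and the falling Ifitm1 (-1.19 ± 0.18). The median of these 32 relative to EV was 0.94 and 0.88 on Ebf1-Eng arrays 1 and 2 and -0.0093 on array 3.

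Markers of other cell types gave these values in the same comparison. Of 11 macrophage markers Cd68, Adgre1 and Mrc1 rose, and the median of the 11 relative to EV was 0.26, 0.29 and 0.33 on Ebf1-Eng arrays 1, 2 and 3. Of 7 plasmacytoid dendritic cell markers, a cell type that makes much interferon, Cox6a2, Ccr9 and Tcf4 rose and Spib fell, while the defining marker Siglech differed by 0.035 ± 0.11 (adjusted p = 0.88). Of 10 T cell markers, the signalling adaptor Lat rose, by 3.57 ± 0.22, and of 7 NK cell markers 0 were called, with 0 at an unadjusted p under 0.05 by limma. The part of these markers in the interferon response values was not tested. These were GFP-sorted cells of 1 cell line, so the list names label genes and do not show that such cells were present.

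During Ebf1-ER activation most interferon response genes were lower at 6 h than at 0 h, and lower than at 0 h at 12 and 24 h too. By limma with Benjamini-Hochberg adjustment, with n = 2 per time and 1 estimate of the spread over the 4 times, 28 of 35 members fell and 2 rose at 6 h, where 35.1% of all genes were called, 16.4% lower and 18.6% higher. At 12 h, 28 fell and 1 rose, with 39.8% of all genes called, 19.9% lower and 19.9% higher. At 24 h, 29 fell and 1 rose, with 38.8% of all genes called, 17.8% lower and 21% higher. The median difference over members was -0.91, -0.99 and -0.97 at 6, 12 and 24 h, against 0.027, 0.028 and 0.048 over all genes. These 3 comparisons share the 0 h arrays, so their counts are not independent of each other. Time in the drug and time since the cells were put back on OP9 stroma cannot be told apart in this design. A single fit over all groups of the series, which pools the spread of the 3 experiments, called 9, 11 and 11 members, where it called 21.8%, 27.0% and 25.9% of all genes.

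**Figure D3:**
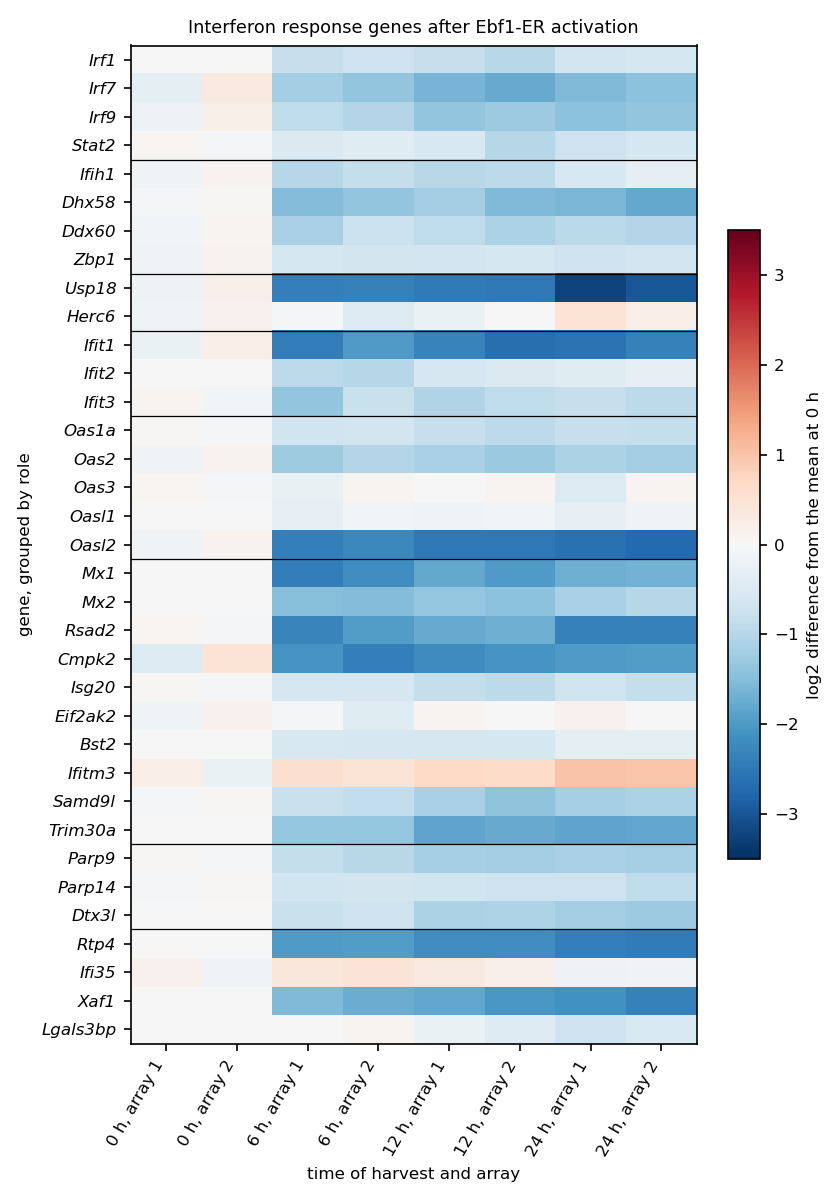
Heat map of the 35 measured interferon response genes (rows, grouped by role) in the 8 arrays of the Ebf1-ER experiment (columns, by hours in 4-hydroxytamoxifen), coloured by the log2 difference from the mean of the 0 h arrays. Blue rows such as Usp18, Ifit1, Oasl2 and Rtp4 are lower on all 6 later arrays, while Ifitm3 is red on all of them.

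Between consecutive later times few members moved on the 1 probe set read per gene. From 6 to 12 h only Trim30a passed the threshold, with a difference of -0.46 ± 0.085 (adjusted p = 0.0375), where 2.39% of all genes were called, 1.5% higher and 0.89% lower. From 12 to 24 h only Rsad2 did, with a difference of -0.62 ± 0.13 (adjusted p = 0.0426), where 4.16% were called, 2.48% higher and 1.68% lower. Each of these calls was lost when any 1 of the arrays of the times compared was left out. The median difference over members was -0.079 and 0.023 in these steps. Other Ifi35 probe sets than the one used were called lower from 12 to 24 h, with -0.48 and -0.42 (adjusted p = 0.0312 and 0.0426 by limma).

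All 4 transcription factors fell at each later time. Irf7 read 1.07 and 1.74 at 0 h, 0.21 and 0.032 at 6 h, -0.23 and -0.36 at 12 h, and -0.14 and -0.032 at 24 h. Both 0 h arrays lay above all 6 later ones, and the difference at 24 h was -1.49 ± 0.20 (adjusted p = 0.000711). Irf9 read 0.95 and 1.35 at 0 h, 0.27 and 0.12 at 6 h, -0.23 and -0.12 at 12 h, and -0.29 and -0.23 at 24 h. Its 0 h arrays were again the highest, and it differed by -0.95 ± 0.14, -1.33 ± 0.14 and -1.41 ± 0.14 at 6, 12 and 24 h. Stat2, here on another probe set than in 230238 cells, read 0.61 and 0.46 at 0 h, 0.018 and 0.097 at 6 h, -0.018 and -0.47 at 12 h, and -0.20 and -0.09 at 24 h. The 0 h arrays were the highest of the 8, and the 24 h difference was -0.68 ± 0.15 (adjusted p = 0.00865). The other Stat2 probe set differed by -0.30 ± 0.13 at 24 h and was not called. Irf1 had values of 0.68 and 0.69 at 0 h, -0.11 and -0.026 at 6 h, -0.12 and -0.28 at 12 h, and 0.026 and 0.082 at 24 h. It too was highest at 0 h, with a 24 h difference of -0.63 ± 0.095 (adjusted p = 0.00122).

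On the probe sets used, the 4 nucleic acid sensors also fell at every time. Dhx58 read 1.41 and 1.51 at 0 h, -0.067 and 0.067 at 6 h, 0.25 and -0.087 at 12 h, and -0.14 and -0.33 at 24 h. The 0 h arrays stood more than 1 log2 unit above all others, and the 24 h difference was -1.69 ± 0.14 (adjusted p = 5.67e-05). The other Dhx58 probe sets differed by -0.29 and 0.017 at 24 h and were not called. The first of these was called lower at 6 h (-0.62) and 12 h (-0.56). Ddx60 and Zbp1 differed by -0.97 and -0.69 at 24 h. The other Ddx60 probe set differed by -0.27, -0.44 and -0.23 at 6, 12 and 24 h and was called only at 12 h. Ifih1 was -0.91 at 6 h and -0.45 at 24 h, a smaller fall at the later time, though its step from 12 to 24 h did not pass the threshold, at 0.49 ± 0.12 (adjusted p = 0.0748).

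Usp18 had the largest fall of the members at 24 h. It read 2.26 and 2.60 at 0 h, 0.042 and 0.076 at 6 h, -0.042 and -0.068 at 12 h, and -0.80 and -0.54 at 24 h. The 0 h pair was far above the rest and the 24 h pair was the lowest, and the 24 h difference was -3.10 ± 0.14 (adjusted p = 6.65e-06), a level 8.58-fold lower. Herc6, on the probe set used, was not called at any time, with 0.35 ± 0.18 (adjusted p = 0.168) at 24 h. Another of its 4 probe sets was called lower by limma at 6 h, with a difference of -0.55 (adjusted p = 0.0241), and at 12 h, with -0.47 (adjusted p = 0.0418).

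The Ifit genes fell at all 3 times. Ifit1 read 2.13 and 2.57 at 0 h, -0.059 and 0.37 at 6 h, 0.026 and -0.29 at 12 h, and -0.23 and -0.026 at 24 h. No later array came near the 0 h pair, and the 24 h difference was -2.48 ± 0.20 (adjusted p = 6.03e-05), or 5.58-fold lower. Ifit2 differed by -0.96, -0.55 and -0.35 at 6, 12 and 24 h, and Ifit3 by -1.08, -0.97 and -0.85. In the OAS family Oas1a, Oas2 and Oasl2 fell at each time and Oas3 and Oasl1 were not called. Oasl2 read 2.32 and 2.58 at 0 h, 0.049 and 0.20 at 6 h, -0.061 and -0.049 at 12 h, and -0.17 and -0.28 at 24 h. The pair at 0 h was more than 2 log2 units above the later arrays, and the 24 h difference was -2.68 ± 0.12 (adjusted p = 5.98e-06), or 6.39-fold lower.

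Of the 10 other antiviral effectors, 8 fell and 1 rose at each time. Rsad2 read 1.94 and 1.80 at 0 h, -0.45 and -0.098 at 6 h, 0.098 and 0.15 at 12 h, and -0.50 and -0.49 at 24 h. Its 0 h pair was the highest, with the 24 h pair lowest together with 1 array of 6 h, and the 24 h difference was -2.37 ± 0.13 (adjusted p = 1.22e-05), or 5.16-fold lower. Mx1 differed by -2.31 at 6 h and -1.68 at 24 h, Cmpk2, the genomic neighbour of Rsad2, by -1.96, and Trim30a by -1.83 at 24 h. Ifitm3 went the other way, with rises of 0.51 ± 0.15, 0.68 ± 0.15 and 0.99 ± 0.15. Eif2ak2 was not called at any time.

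All 3 genes of the PARP9-DTX3L and PARP14 group fell at each time. Dtx3l, the ubiquitin ligase that pairs with Parp9, read 0.96 and 0.91 at 0 h, 0.16 and 0.20 at 6 h, -0.18 and -0.16 at 12 h, and -0.27 and -0.35 at 24 h. Each later pair lay below the pair of the time before, and the 24 h difference was -1.24 ± 0.086 (adjusted p = 2.91e-05). Among the other induced genes, Rtp4 read 2.05 and 2.11 at 0 h, 0.086 and 0.13 at 6 h, -0.086 and -0.098 at 12 h, and -0.33 and -0.36 at 24 h. The later pairs lay about 2 log2 units below 0 h, and the 24 h difference was -2.42 ± 0.084 (adjusted p = 2.94e-06), or 5.36-fold lower. Xaf1 fell at each time, with -2.24 ± 0.13 at 24 h. Lgals3bp was not called at 6 h (0.066 ± 0.11) or 12 h (-0.33 ± 0.11) and fell at 24 h (-0.63 ± 0.11). Ifi35, on the probe set used, rose at 6 h (0.43 ± 0.12) and was not called later. Another of its probe sets was called lower at 24 h, with -0.36 (adjusted p = 0.0147 by limma).

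The pathway lists at 24 h gave these counts. Of 10 interferon genes, Ifnz fell (-0.71 ± 0.15) and Ifnb1 rose (0.38 ± 0.094), and 8 were not called. Of 14 receptor and JAK-STAT genes, 8 fell and 0 rose, with the largest differences in the inhibitor Socs3 (-2.44 ± 0.14), the receptor chain Ifnar1 (-1.77 ± 0.15) and Stat3 (-1.73 ± 0.13), which cytokine receptors other than the interferon receptor also use. Of 24 sensing genes, 8 fell and 4 rose, led by the RNA-editing enzyme Adar (-1.75 ± 0.14), the DNA sensor Cgas (1.38 ± 0.10, a rise) and Ddx58 (-1.31 ± 0.11). Of 32 other interferon-induced genes, 18 fell and 2 rose, led by Slfn5 (-3.03 ± 0.19), the nuclear body protein Sp100 (-2.16 ± 0.26) and Ifitm1 (2.01 ± 0.086, a rise).

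Markers of a source of interferon and of the feeder layer also moved over this time course. Of 7 plasmacytoid dendritic cell markers, 6 fell and Klk1 rose at 24 h, with Siglech at -1.62 ± 0.15 and a median relative to 0 h of -1.35 and -1.37 on the 24 h arrays. Of 9 stromal markers Col1a2, Col3a1, Pdgfra, Pdgfrb and Cxcl12 fell at 24 h, with a median of -1.08 and -0.53 on those arrays, and 0 rose. Of 11 macrophage markers Mrc1, Adgre1, Vsig4 and Cd68 rose and Itgam and Lyz2 fell, and of 7 NK cell markers 4 fell. The part of these markers in the falls of the interferon response genes was not tested. In bulk RNA, fewer cells of a type and less RNA per cell cannot be told apart. The early B-cell genes Igll1 and Vpreb1, targets of Ebf1, rose by 3.59 ± 0.09 and 1.97 ± 0.12. The early B-cell markers as a list moved both ways at 24 h: of 12, 3 rose, 4 fell and 5 were not called. Their median difference was 0.030, with a range from -3.31 to 3.59.

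Members called in both of these experiments can be compared, since they share no arrays. All 10 members that rose with Ebf1-Eng were among the 29 that fell at 24 h of Ebf1-ER activation, which is 100% of the first list and 34.5% of the second. Of the 31 that rose without the arrays numbered 3, 26 (83.9%) fell at 24 h, which is 89.7% of the 29. In both experiments Irf7, Usp18, Ifit1, Oasl2, Rsad2 and Rtp4 had the largest difference of their role group, 6 of the 8 groups. Since 29 of the 35 members fell at 24 h, most members of any list would be shared. Of all genes 17.8% fell at 24 h, and the overlap over all genes that rose with Ebf1-Eng was not counted. Some members, such as Stat2 and Zbp1, were read from different probe sets in these experiments.

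The wild-type pro-B samples stood apart from all 8 lymph nodes in RNA of granulocyte genes. Values of Mpo, a granule enzyme, were 6.69 and 7.61 in the wild-type samples and at most 0.10 in a node, a difference of -7.21 ± 0.20 (adjusted p = 7.06e-09 by limma). Lcn2, a neutrophil protein, read 9.82 and 9.97 in the wild-type samples and at most 2.85 in a node, and S100a8 read 8.53 and 8.55 against a highest node of 4.77. These 3 genes were chosen after their values were seen. Of the 11 macrophage markers listed, 8 were lower in the nodes and 0 higher, with Lyz2 at -4.97 ± 1.20 and Itgam at -3.95 ± 0.46, and of the 12 early B-cell markers Rag2 was lower and Ebf1, on the probe set described above, higher. Of 5 erythroid markers 4 were lower, of 9 stromal markers 4, and of 7 plasmacytoid dendritic cell markers Klk1 and Siglech. For comparison, 8.64% of the 18193 genes passed the same threshold as lower in the nodes, and 11.3% as higher. Myeloid cells express many interferon response genes, and the part of this RNA in the differences below was not tested.

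Between lymph nodes and wild-type pro-B cells few interferon response genes differed. With n = 8 nodes and 2 wild-type samples, 1 of 35 members was higher in the nodes, 2 were lower and 32 were not called by limma with Benjamini-Hochberg adjustment, where 19.9% of all genes passed, 11.3% of all genes being higher and 8.64% lower. The labels name no mouse for any node, so treating the 8 nodes as independent samples is an assumption. The median difference over members was -0.25, against 0.019 over all genes. For 1 member all nodes lay above both wild-type samples and for 5 all lay below, where 15.9% and 12.8% of all genes showed this. The calls rest on only 2 wild-type samples, and without either of them the 1 left is assumed to vary like the nodes. Over the alternative fits, those without a wild-type sample included, Rsad2 differed by -2.73 to -2.09 and Lgals3bp by 1.43 to 1.69. With the 2 arrays of each node kept apart and the node as a random block, 8 members were called, and 22.1% of all genes.

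Rsad2 read 2.75 and 2.38 in the wild-type samples and -1.14, -0.086 and 1.15 as the lowest, median and highest lymph node. Both wild-type samples lay above all 8 nodes, and Rsad2 was 5.82-fold lower in the nodes, a difference of -2.54 ± 0.50 (adjusted p = 0.00612). Oas3 read 0.64 and 0.65 in the wild-type samples and -0.66, 0.025 and 0.068 as the lowest, median and highest lymph node. Again no node reached the wild-type samples, and the difference was -0.75 ± 0.18 (adjusted p = 0.0167). Lgals3bp read -1.16 and -1.35 in the wild-type samples and -0.61, 0.17 and 1.23 as the lowest, median and highest lymph node. All nodes lay above both wild-type samples, and it was 2.95-fold higher, a difference of 1.56 ± 0.41 (adjusted p = 0.025).

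The transcription factors were not called. Irf7 read -0.13 and -0.20 in the wild-type samples and -0.54, 0.051 and 0.78 as the lowest, median and highest lymph node. The nodes lay on both sides of the wild-type pair, and the difference was 0.32 ± 0.35 (adjusted p = 0.572). Irf9 read 0.18 and 0.23 in the wild-type samples and -0.62, -0.062 and 0.23 as the lowest, median and highest lymph node. The highest node matched the higher wild-type sample and the other 7 lay below both, and the difference was -0.33 ± 0.20 (adjusted p = 0.3). Stat2 read 0.082 and 0.29 in the wild-type samples and -0.33, -0.089 and 0.35 as the lowest, median and highest lymph node, with overlap, and differed by -0.25 ± 0.18 (adjusted p = 0.383). Irf1 read 0.23 and 0.33 in the wild-type samples and -0.31, -0.046 and 0.32 as the lowest, median and highest lymph node. One node lay between the wild-type samples and the other 7 below them, and the difference was -0.32 ± 0.15 (adjusted p = 0.154).

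The members with the largest difference among the sensors, the ISG15 conjugation genes, the IFIT and OAS families and the PARP group were not called either. Zbp1 read 0.97 and 0.85 in the wild-type samples and -0.97, -0.0066 and 0.77 as the lowest, median and highest lymph node. All nodes were below both wild-type samples, yet the spread among nodes left a difference of -0.97 ± 0.41 (adjusted p = 0.131). Usp18 had 0.50 and 0.20 in the wild-type samples and -2.17, -0.13 and 1.01 as the lowest, median and highest lymph node. The nodes spanned more than 3 log2 units around the wild-type values, and the difference was -0.69 ± 0.70 (adjusted p = 0.554). Ifit1 read 0.77 and 0.75 in the wild-type samples and -1.54, -0.31 and 1.65 as the lowest, median and highest lymph node, also on both sides, and differed by -0.92 ± 0.72 (adjusted p = 0.429). For Oasl2 the values were 0.80 and 0.60 in the wild-type samples and -1.32, -0.23 and 0.21 as the lowest, median and highest lymph node. No node reached the wild-type pair, and the difference was -1.06 ± 0.39 (adjusted p = 0.0844). Dtx3l read -0.054 and -0.24 in the wild-type samples and -0.72, 0.026 and 0.33 as the lowest, median and highest lymph node, with overlap, and differed by 0.14 ± 0.22 (adjusted p = 0.726).

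Among the pathway lists, 0 of 10 interferon genes were called by limma in this comparison and 1 of the 10 had an unadjusted p under 0.05, where 32.5% of all genes did. Of 14 receptor and JAK-STAT genes, Ifngr1 was higher (1.32 ± 0.17) and Ptpn11 (-0.72 ± 0.12) and Ifnar2 (-0.61 ± 0.17) lower. Of 24 sensing genes 5 were higher and 2 lower, led by Ifi204 (-2.73 ± 0.21), which myeloid cells express, Tlr7 (2.21 ± 0.22) and Sting1 (1.87 ± 0.29). Of 32 other interferon-induced genes 3 were higher and 2 lower, led by Parp11 (1.21 ± 0.24), Tdrd7 (-1.04 ± 0.28) and Tor3a (0.76 ± 0.24).

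The 8 lymph nodes differed from each other in the interferon response genes, with LN 317 and LN 327 low and LN 279, LN 381 and LN 383 high for most of them. With limma's moderated F test over the 16 node arrays, with the difference of a node's 2 arrays as the error, all 35 members differed between nodes, where 59.6% of all genes did. The median difference between the 2 arrays of a node was 0.070, and the median span over the 8 nodes was 1.53, from 0.52 for Mx2 to 3.64 for Xaf1. The 2 arrays of a node may be technical repeats of 1 sample, so the test sets nodes against array error, not against other nodes of the same mouse.

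The median over members relative to wild type was -0.80 in LN 327, -0.59 in LN 317, -0.36 in LN 278, -0.33 in LN 277 and -0.12 in LN 292. It was 0.063 in LN 381, 0.16 in LN 279 and 0.26 in LN 383. LN 327 was the lowest node for 16 of the 35 members and LN 317 for 14. LN 383 was the highest for 14, LN 279 for 10 and LN 381 for 5.

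**Figure D4:**
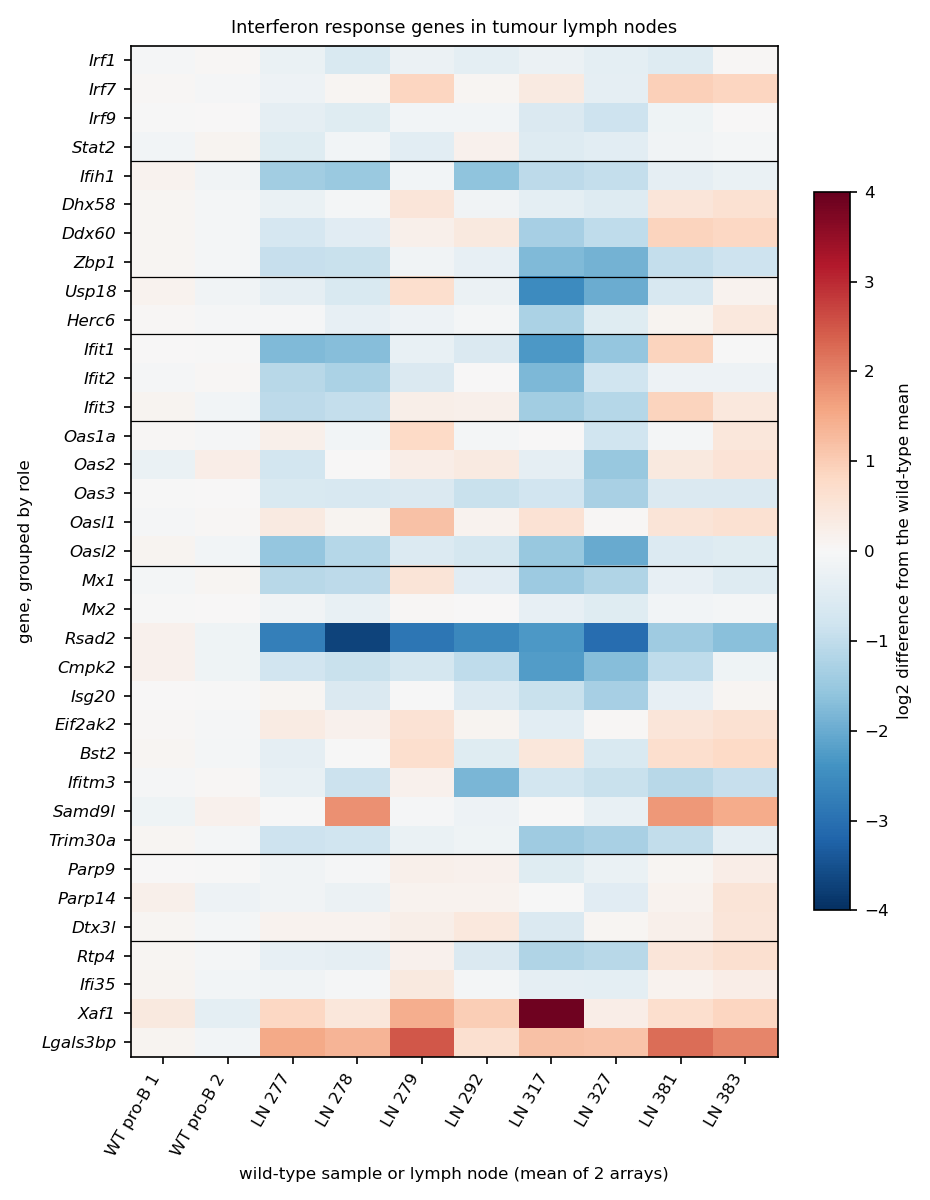
Heat map of the 35 measured interferon response genes (rows, grouped by role) in the wild-type pro-B samples and the 8 lymph nodes (columns, each node the mean of 2 arrays), coloured by the log2 difference from the wild-type mean. Rsad2 is blue in all 8 nodes and Lgals3bp red in all 8, and Xaf1 in LN 317 has the highest value, 3.90.

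The 6 members with the largest F were Usp18, Samd9l, Rtp4, Ifit1, Ifitm3 and Bst2. Usp18 ran from -2.17 in LN 317 to 1.01 in LN 279, with a median of -0.13, and F was 705 (adjusted p = 2.15e-11). LN 317 and LN 327, the latter at -1.62, stood well below the other 6. Samd9l ran from -0.24 in LN 327 to 1.87 in LN 278, with a median of 0.024, and F was 457 (adjusted p = 9.94e-11). Its values fell into 2 sets, with LN 278, LN 381 and LN 383 at 1.55 to 1.87 and the other 5 at -0.24 to 0.025. Rtp4 ran from -0.82 in LN 317 to 1.04 in LN 383, with a median of 0.042, and F was 253 (adjusted p = 1.08e-09). Its low nodes were again LN 317 and LN 327. Ifit1 ran from -1.54 in LN 317 to 1.65 in LN 381, with a median of -0.31, and F was 229 (adjusted p = 1.56e-09). LN 277, LN 278 and LN 327 were low beside LN 317, with LN 278 at -0.95 and LN 327 at -0.78. For Ifitm3 the range was -0.96 in LN 292 to 1.05 in LN 279, with a median of -0.017, and F was 175 (adjusted p = 4.89e-09). This gene was thus lowest in another node than the Ifit genes. Bst2, which tethers virus particles to the cell surface, ran from -0.66 in LN 327 to 0.76 in LN 383, with a median of 0.18, and F was 138 (adjusted p = 1.37e-08).

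Of the transcription factors, Irf7 ran from -0.54 in LN 327 to 0.78 in LN 381, with a median of 0.051, and F was 37.9 (adjusted p = 3.96e-06). Stat2, with the smallest F of the 35, ran from -0.33 in LN 317 to 0.35 in LN 292, with a median of -0.089, and F was 3.74 (adjusted p = 0.0424). Of the pathway lists, 2 of 10 interferon genes, 14 of 14 receptor and JAK-STAT genes, 22 of 24 sensing genes and 30 of 32 other interferon-induced genes differed between nodes.

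Marker lists of several cell types also differed between nodes. Relative to wild type, the median of 10 T cell markers was 3.27 in LN 279, 2.08 in LN 383, 1.20 in LN 381, 0.36 in LN 292 and between -0.28 and -0.088 in the other 4. The median of 7 NK cell markers was 2.66 in LN 279, 0.62 in LN 383 and 0.14 in LN 381 and between -0.85 and -0.24 in the other 5. The median of 7 mature B-cell markers was 1.60 in LN 279, between 0.81 and 0.87 in LN 278, LN 292 and LN 383, 0.11 in LN 381, -0.52 in LN 277, -0.76 in LN 327 and -0.80 in LN 317. All 10 T cell, all 7 NK cell and all 7 mature B-cell markers differed between nodes by the same F test, where 59.6% of all genes did. So did 12 of 12 early B-cell, 9 of 11 macrophage, 6 of 7 plasmacytoid dendritic cell, 3 of 9 stromal and 0 of 5 erythroid markers. The plasmacytoid dendritic cell median was highest in LN 292 (-0.085) and lowest in LN 381 (-1.22). The early B-cell median was highest in LN 292 (0.38) and lowest in LN 317 (-0.78). The part of these cells in the spread of the interferon response genes was not tested.

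**Figure D5:**
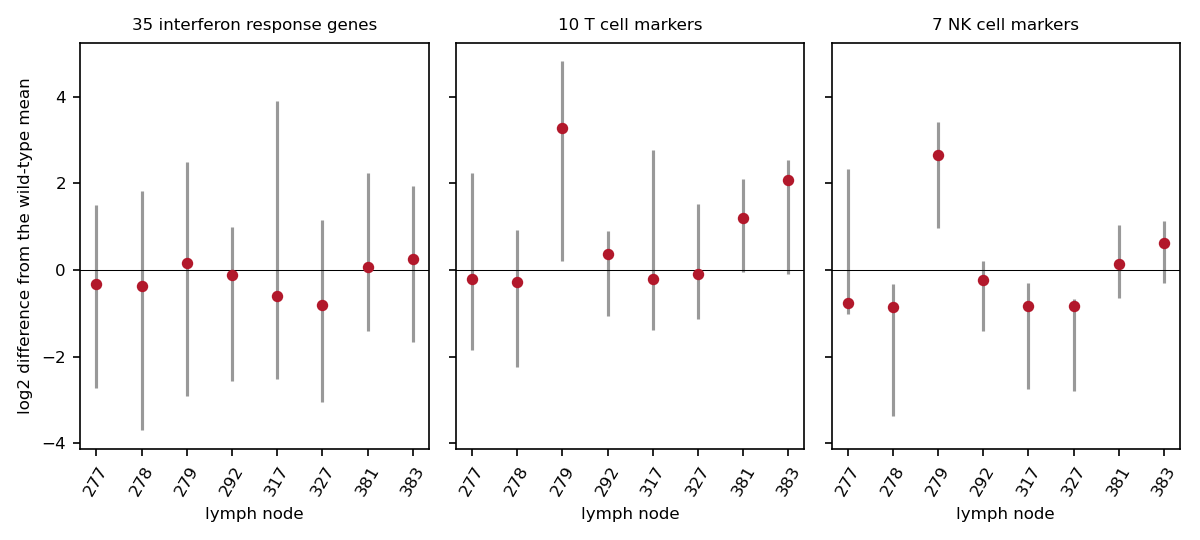
The 35 interferon response genes, 10 T cell markers and 7 NK cell markers in each of the 8 lymph nodes, as log2 differences from the wild-type mean (vertical axis), with the median as a point and the lowest and highest gene as the ends of the line. LN 279 has the highest medians of both marker lists, 3.27 and 2.66, and LN 383 the highest median of the interferon response genes, 0.26.

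For 14 of the 35 members more than 1 probe set was on the array. With Ebf1-Eng, 2 of the 14 had a probe set past an adjusted p of 0.05, and at 24 h of Ebf1-ER activation 12 had one, 7 of them with every probe set called in the same direction. Between nodes and wild type 2 of the 14 had one. Among them was Cmpk2, not called on the probe set used but lower on its other one, with -0.65 (adjusted p = 0.00534 by limma). No member had probe sets called in opposite directions in any of the 7 comparisons between 2 groups. The members with the response element core in a promoter window and those without had median differences of 1.42 and 1.08 with Ebf1-Eng, and 3 of 12 and 3 of 14 were called. At 24 h of Ebf1-ER activation the medians were -0.75 and -0.94, and 9 of 12 and 11 of 14 fell.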

How the data were processed

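RNA was hybridised to Affymetrix mouse expression arrays, 32 in 3 experiments. The submitters' processing notes name RMA, which gives background-corrected, quantile-normalised probe set summaries, and do not state the log base. The deposited values were taken as log2 and not normalised again. In the first and second experiments every probe set had a median of 0. Probe sets were named through the platform annotation and updated by gene ID: of 45101, 34945 had 1 gene symbol and 932 several, giving 18193 genes. The probe set with the largest variance within an experiment stood for each gene. This choice does not use the group labels, but the variance includes differences between groups. It can therefore favour the probe set with the larger difference.

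Each experiment was fitted with limma 3.58.1 in R 4.3.3 (lmFit, eBayes, 1 spread per gene over its groups), and Benjamini-Hochberg adjusted p-values over all 18193 genes were read at 0.05. The 2 arrays of a lymph node were averaged for the comparison with wild type and kept apart for the F test between nodes. Deviations of same-numbered Ebf1-Eng and EV arrays correlated at 0.29, 0.36 and 0.44. Differently numbered arrays gave 0.29 for Ebf1-Eng 1 with EV 2, 0.14 for Ebf1-Eng 2 with EV 1 and -0.40 to -0.26 otherwise. These values set the arrays numbered 3 apart and do not show that numbers 1 and 2 pair samples. An alternative took same-numbered arrays as paired, with the number as a block. Members named with values in full were the largest difference of each role group, the transcription factors and, between nodes, the 6 largest F values, plus Oas3, named after its values were seen, as the remaining member called between nodes and wild type. For the pathway lists they were up to 3 called genes with the largest differences. The members, gene lists and alternatives were chosen with earlier results of these data known. Alternatives were the mean of all probe sets, the probe set chosen on the other experiments, array medians subtracted, a variance filter, robust eBayes, 1 fit over all groups, the block and leaving out arrays. Scripts were tested on simulated data.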

Additional observations from a re-analysis of the deposited data

Results flagged for a closer look

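Within the group of 8 lymph nodes, 3 of the 35 interferon response genes had 1 node far from the nearest other one, relative to the whole range of the nodes (Dixon's test, which chance passes for about 1 in 20 groups). This was 8.57% of the members, where 10.9% of all 18193 genes passed it. Xaf1 read 3.17 in LN 317, where the next node, LN 279, read 0.71. Dtx3l read -0.72 in LN 317, where the next node, LN 327, read -0.063. Oas3 read -0.66 in LN 327, with LN 292 next at -0.26. LN 317 was thus the highest node for Xaf1 and the lowest for Dtx3l.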

How the results depend on the processing

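Leaving out single arrays moved the number of members called from 10 to between 0 and 29 for Ebf1-Eng against EV, from 1 to between 0 and 1 for 12 h against 6 h and for 24 h against 12 h, and from 3 to between 0 and 3 for lymph nodes against wild type. The replicate block gave 19 for Ebf1-Eng against EV and 0 for both steps between later times, whose numbers did not pair the samples. Leaving out both arrays numbered 3 gave 31 for Ebf1-Eng. A single fit over all groups gave 22 for Ebf1-Eng, with 16.7% of all genes called, 9, 11 and 11 for 6, 12 and 24 h against 0 h, and 0 for both later steps. For 12 h against 6 h the count was 3 with the mean of all probe sets, 0 with the probe set chosen on the other experiments and 2 without the genes of low variance. For 24 h against 12 h it was 2 under each of these and with array medians subtracted. The share of all genes called in the fits of these later steps is not given here. Their counts, from 0 to 3, are therefore not read as a result about the members. With the node as a random block 8 members were called between nodes and wild type. Of single members under an alternative, 1160 kept direction and side of the threshold, 73 lost the call, 30 gained it and 7 changed sign. With single arrays left out, Irf9 with Ebf1-Eng ran from -0.040 (without EV array 3) to 0.26 and was just below 0 without Ebf1-Eng array 2. From 6 to 12 h Herc6 ran from -0.038 (without 6 h array 2) to 0.38 and Dhx58 from -0.087 (without 12 h array 1) to 0.25. From 12 to 24 h Stat2 ran from -0.13 (without 12 h array 2) to 0.32 and Oas3 from -0.53 to 0.048 (without 24 h array 1). Dtx3l between nodes and wild type was -0.074 with the probe set chosen on the other experiments. The cause of these changes was not tested beyond the fewer samples of each fit. The number of arrays, 2 or 3 per group, limits the precision.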

Other observations

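EV array 3 differed from the other EV arrays in several interferon response genes. Usp18 lay -2.20 from the mean of EV arrays 1 and 2, Bst2 -1.39, Eif2ak2 -1.07 and Rtp4 -1.03, and 5 of the 35 members lay above the mean of all 3 EV arrays on that array, compared with 26 and 28 on EV arrays 1 and 2.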
